A study of Mus musculus with 18 samples.

Results

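The genes described here are the potassium channel subunits of mouse colon organoids, taken as every protein-coding gene whose symbol starts with Kcn. The deposited table held 94 such genes among 21970 protein-coding genes and 56748 genes in all. Of these, 9 reached 1 FPKM, a level scaled to gene length and library size, in at least 3 libraries. Those described below are Kcnk1, Kcnq1, Kcnk5, Kcne3, Kcnn4, Kcnk6, Kcnf1 and Kcnu1, and the counts are over all 9. The other 85 stayed below that level.

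Bulk poly-A RNA was sequenced from organoids, which are epithelial cultures, grown from proximal, mid or distal colon. Each region was cultured in a control medium, ENR with Wnt3a-conditioned medium, that keeps the organoids proliferating, or in a differentiation medium, the media being applied 3 days after passaging. The 6 groups held 3 libraries each, 18 in all. The ingredients of the differentiation medium, the mouse strain, age and sex, and whether replicates came from separate animals or from cultures of 1 line are not given in the sources used here, so the p-values measure only the spread between these libraries. Organoids model the epithelium alone.

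Potassium channels let potassium leave the cell and so hold the membrane voltage negative. In the crypts of the colon, basolateral channels made of Kcnq1 with its ancillary subunit Kcne3, and the calcium-activated channel Kcnn4, return the potassium brought in by the sodium pump and the sodium-potassium-chloride cotransporter, and their voltage drives chloride secretion. Two-pore-domain subunits of the Kcnk family form background channels, and silent subunits such as Kcnf1 conduct only when assembled with Kv2 subunits.

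Promoter windows, the 250 bases upstream of an annotated start, were found in the RefSeq table of the GRCm38.p6 build for 5 of the 9 genes, in 6 windows. Those of the genes whose transcripts changed most with the medium are shown, first the 2 that fell and then the 2 that rose. Sequences read 5′ to 3′ along the gene's strand, and capitals mark motif matches on either strand to the GC box (GGGCGG), AP-1 (TGANTCA), the TCF/LEF core (CTTTGA), the CDX core (TTTATG) or the TATA box (TATAAA).
Kcnn4, plus strand, chr7:24370013-24370262: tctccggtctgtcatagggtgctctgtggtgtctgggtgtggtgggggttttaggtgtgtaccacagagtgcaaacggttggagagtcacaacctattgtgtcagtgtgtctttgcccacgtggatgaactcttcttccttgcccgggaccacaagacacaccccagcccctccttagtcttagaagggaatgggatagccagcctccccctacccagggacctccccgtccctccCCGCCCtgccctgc
Kcne3, plus strand, first start, chr7:100176420-100176669: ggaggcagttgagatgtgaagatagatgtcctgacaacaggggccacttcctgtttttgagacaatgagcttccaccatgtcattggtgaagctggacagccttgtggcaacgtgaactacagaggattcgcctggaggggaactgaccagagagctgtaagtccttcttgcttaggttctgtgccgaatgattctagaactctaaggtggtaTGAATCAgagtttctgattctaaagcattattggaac
Kcne3, plus strand, second start, chr7:100178433-100178682: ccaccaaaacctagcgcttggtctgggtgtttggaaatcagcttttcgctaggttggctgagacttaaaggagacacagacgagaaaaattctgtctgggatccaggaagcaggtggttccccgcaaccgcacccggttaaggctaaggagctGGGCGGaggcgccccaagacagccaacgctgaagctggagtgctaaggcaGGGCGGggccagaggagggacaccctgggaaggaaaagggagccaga
Kcnk5, minus strand, chr14:20181783-20182032: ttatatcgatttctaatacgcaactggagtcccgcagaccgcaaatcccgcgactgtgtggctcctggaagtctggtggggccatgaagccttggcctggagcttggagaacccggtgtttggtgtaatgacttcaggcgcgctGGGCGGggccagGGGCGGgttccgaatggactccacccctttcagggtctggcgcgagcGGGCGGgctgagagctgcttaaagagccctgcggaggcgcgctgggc
Kcnf1, minus strand, chr12:17176889-17177138: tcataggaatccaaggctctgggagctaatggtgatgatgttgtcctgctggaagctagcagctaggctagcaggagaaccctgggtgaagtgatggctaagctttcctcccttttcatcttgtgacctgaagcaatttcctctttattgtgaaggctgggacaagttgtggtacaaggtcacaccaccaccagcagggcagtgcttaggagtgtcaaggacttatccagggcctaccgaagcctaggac
The Kcnk5 window held 3 GC boxes, 19 CG dinucleotides and 62.8% G and C, against a median of 52.4% over 32851 windows. The Kcnn4 window held 1 GC box, and the Kcne3 starts differed, with 1 AP-1 match at the first and 2 GC boxes at the second. The Kcnf1 window held no match and 1 CG dinucleotide. Over the 32851 windows, 32.7% held a GC box, 6.75% AP-1, 13.8% the TCF/LEF core, 10.8% the CDX core and 12.4% the TATA box. The motifs do not overlap one another in these windows, and a match is a description of letters only.

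Libraries held 12827751 to 19938198 reads, recovered from the FPKM, with similar ranges in both media. The 94 genes took from 0.0449% to 0.0652% of a control library's reads. In differentiation medium their share was lower, from 0.0306% to 0.0365%, without overlap. The epithelial markers Epcam, Cdh1, Krt8 and Cdx2 summed to 1689 FPKM or more in every library, while the summed markers of fibroblasts, smooth muscle, nerve, immune and endothelial cells reached at most 0.663 FPKM. With the medium, 4 crypt stem markers (Lgr5, Ascl2, Axin2, Smoc2) summed to 26.1 to 37.8 FPKM in control and 0.132 to 3.95 FPKM in differentiation libraries. The sum of 4 surface colonocyte markers (Krt20, Aqp8, Car4, Slc26a3) went from 35.3 to 77.8 FPKM in control to 535 to 8073 FPKM in differentiation libraries, with proximal differentiation at 535 to 868 FPKM and distal differentiation at 3837 to 8073 FPKM. The means of 5 goblet cell markers (Muc2, Tff3, Clca1, Fcgbp, Spink4) went from 75.9 to 936 FPKM in proximal, from 314 to 1717 FPKM in mid and from 135 to 1395 FPKM in distal organoids. Those of 5 enteroendocrine markers (Chga, Chgb, Neurod1, Pyy, Gcg) went from 1.75 to 14.7, from 23.8 to 100.2 and from 10.1 to 56.3 FPKM. These marker sums moved with every medium difference below, and their part in those differences was not tested. In bulk RNA, fewer cells of a type and less RNA per cell cannot be told apart. Some libraries stood apart from their replicates. Distal differentiation replicate 1 had a surface colonocyte sum of 8073 FPKM against 4699 and 3837 FPKM. Its recovered reads were 1.32 times the library size implied by its FPKM, the highest of the 18 libraries. Proximal differentiation replicate 1 had a crypt stem sum of 3.95 FPKM against 0.593 and 0.768 FPKM in its replicates. Its Mki67, a marker of dividing cells, was 12.6 FPKM against 0.714 and 2.03 FPKM. The sum of 3 proliferation markers (Mki67, Top2a, Pcna) was 67.0 FPKM there against 40.5 and 38.7 FPKM, and in distal differentiation libraries 63.0, 26.9 and 30.8 FPKM. Between media its means went from 56.1 to 48.7 FPKM in proximal organoids, where the libraries overlapped. They went from 127 to 32.5 FPKM in mid and from 99.3 to 40.3 FPKM in distal organoids. Taken singly in the fit described below, 2 of the 3 markers were called lower and 0 higher in proximal organoids. Their median log2 difference there was -1.44, and 26.2% of all tested genes were called lower.

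Between the media, Kcnq1, Kcne3 and Kcnn4 were lower in differentiation medium in all 3 regions, while the two-pore subunits Kcnk5 and Kcnk6 and the silent subunit Kcnf1 were higher in all 3. The third described two-pore subunit, Kcnk1, was called lower in mid organoids (limma on log2(FPKM + 1), Benjamini-Hochberg adjusted over 12896 genes, threshold 0.05). In proximal organoids 3 of the 9 genes were called higher and 5 lower, where 27.6% of all tested genes passed upward and 26.2% downward. In mid organoids 3 were higher and 5 lower, against 31.5% and 32.0% of all genes. In distal organoids 3 were higher and 3 lower, against 31.6% and 31.3%. For proximal, mid and distal organoids in turn, the 9 genes had a median log2 difference of -0.39, -0.46 and -0.34, with the median of all tested genes at -0.01, 0 and 0.00302.

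**Figure D1:**
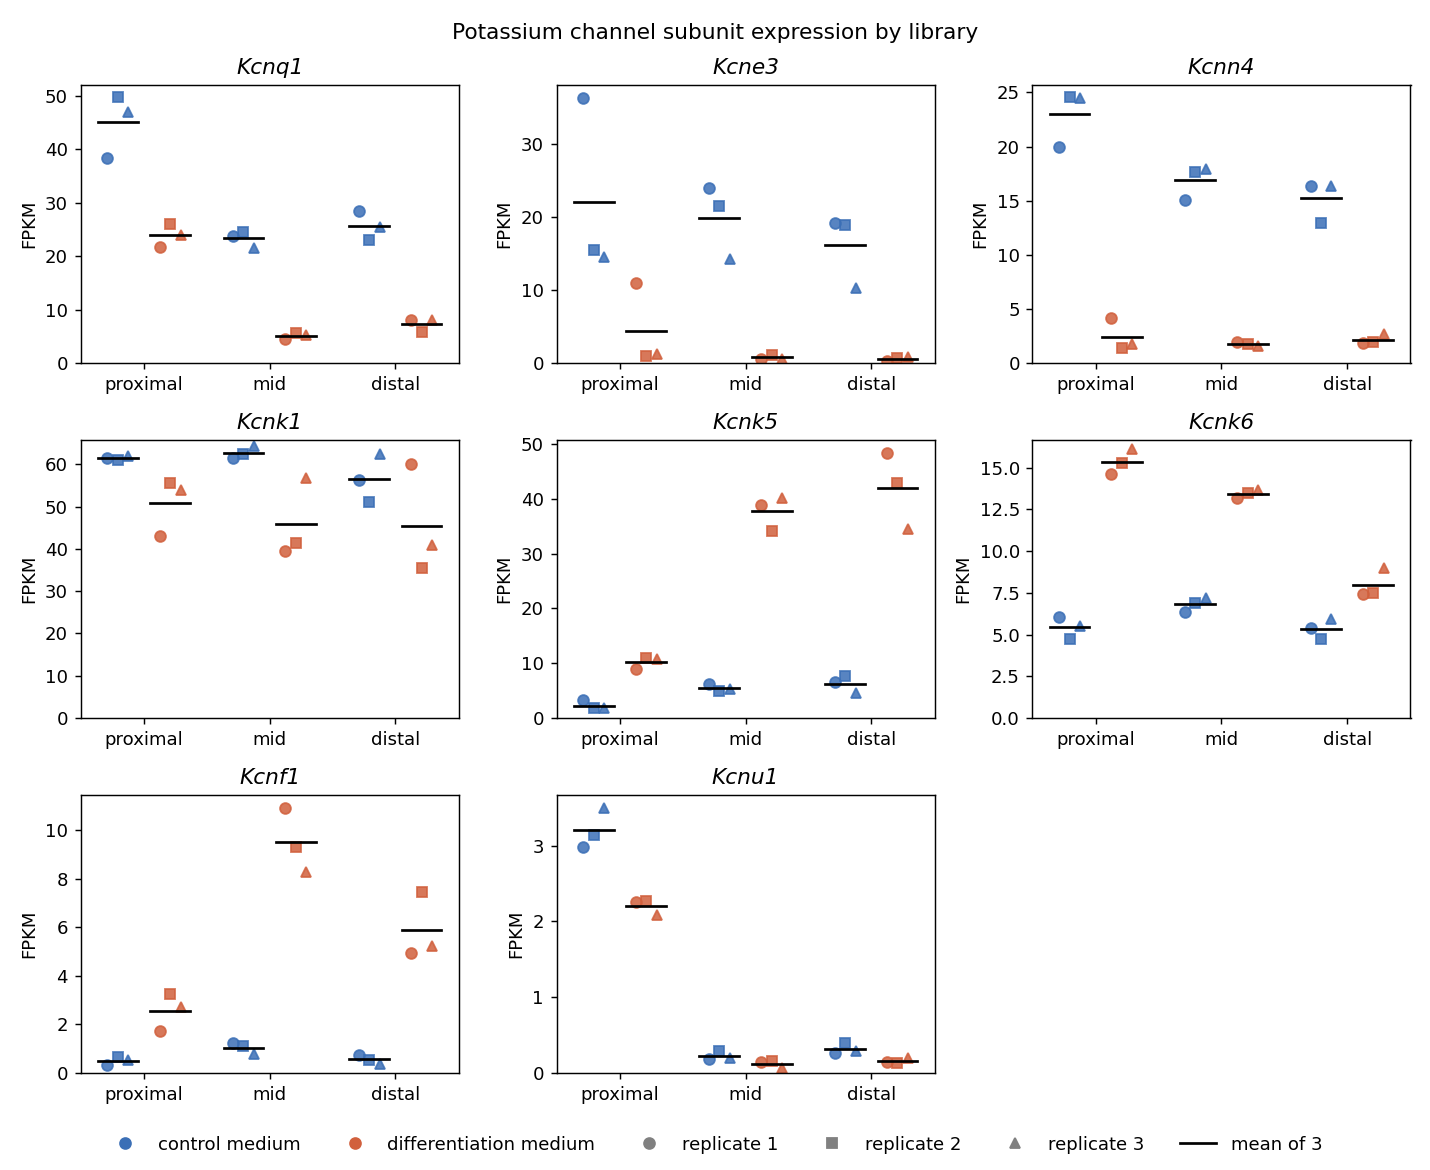
Level in FPKM of 8 genes in every library, by colon region, with the control medium in blue, the differentiation medium in orange and a bar at the mean of 3. The control points of Kcnn4 lie at 13.0 to 24.5 FPKM and its differentiation points at 4.17 FPKM or less, whereas Kcnk5 rises from 1.77 to 7.74 FPKM in control to 8.92 to 48.5 FPKM in differentiation medium.

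Kcnq1, the pore subunit of the basolateral channel that supports cyclic AMP-driven secretion (chromosome 7, 142660099 to 142980779, plus strand, mm39), was measured at 38.3, 49.7 and 47.0 FPKM in proximal control libraries. It was 21.7, 26.1 and 23.9 FPKM in proximal differentiation libraries. Mid control libraries held 23.8, 24.5 and 21.6 FPKM and mid differentiation libraries 4.53, 5.65 and 5.20 FPKM. These groups do not overlap within a region, and every proximal differentiation library stood above every mid or distal differentiation library. Distal control libraries held 28.5, 22.9 and 25.5 FPKM and distal differentiation libraries 8.13, 5.80 and 8.04 FPKM. The log2 difference between media was -0.88 ± 0.13 (SE, adjusted p = 8.73e-05) in the proximal region, -1.99 ± 0.13 (adjusted p = 2.09e-08) in the mid region and -1.69 ± 0.13 (adjusted p = 1.24e-07) in the distal region. Kcnq1 overlaps 12 other genes in the table, the highest of them, 4933417O13Rik, at no more than 0.607 FPKM, and the sources used here do not say if reads were assigned by strand.

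Kcne3, the single-span subunit that holds Kcnq1 channels open (chromosome 7, 99825709 to 99834076, plus strand), was 36.3, 15.5 and 14.5 FPKM in proximal control libraries. It was 10.98, 0.942 and 1.204 FPKM in proximal differentiation libraries, where replicate 1 was far above the other two, though below every proximal control library. Mid control libraries held 24.0, 21.5 and 14.3 FPKM and mid differentiation libraries 0.590, 1.13 and 0.613 FPKM. The highest mid differentiation library was thus below the lowest mid control library. Distal control libraries held 19.2, 19.0 and 10.3 FPKM, and distal differentiation libraries 0.347, 0.714 and 0.773 FPKM. The group means fell 5.06-fold in proximal, 25.6-fold in mid and 26.4-fold in distal organoids. On the log2 scale the differences were -2.51 ± 0.53 (SE, adjusted p = 0.00104), -3.54 ± 0.53 (adjusted p = 3.76e-05) and -3.37 ± 0.53 (adjusted p = 6.23e-05). Without proximal differentiation replicate 1 the proximal difference was -3.36 (adjusted p = 2.44e-06).

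Kcnn4, the intermediate-conductance channel opened by calcium through calmodulin (chromosome 7, 24069688 to 24086115, plus strand), was 19.9, 24.5 and 24.5 FPKM in proximal control libraries. Proximal differentiation libraries held 4.17, 1.40 and 1.77 FPKM. Mid control libraries held 15.1, 17.7 and 17.97 FPKM and mid differentiation libraries 1.92, 1.75 and 1.54 FPKM. Every control library of any region was above every differentiation library. Distal control libraries held 16.3, 13.0 and 16.4 FPKM and distal differentiation libraries 1.87, 1.96 and 2.66 FPKM. The means fell 9.38-fold, 9.72-fold and 7.03-fold in proximal, mid and distal organoids, with log2 differences of -2.88 ± 0.21 (SE, adjusted p = 1.22e-07), -2.71 ± 0.21 (adjusted p = 9.95e-08) and -2.36 ± 0.21 (adjusted p = 4.38e-07).

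The 2 subunits were also compared within each library, as a description. The ratio of Kcne3 to Kcnq1 FPKM was 0.523 ± 0.369 (SD, n = 3) in proximal, 0.848 ± 0.173 in mid and 0.635 ± 0.214 in distal control organoids. In differentiation medium it was 0.506, 0.0361 and 0.0503 in the proximal libraries and averaged 0.149 ± 0.0440 in mid and 0.0873 ± 0.0408 in distal organoids. The mid and distal ratios did not overlap between media, while the proximal ones did through replicate 1. Kcne1, the Kcnq1 partner best known from heart and inner ear, had 0 reads in all 18 libraries, and Kcne2, which also pairs with Kcnq1, had 40 reads over the 18 libraries. These 2 genes were chosen after their values were seen.

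Among the two-pore subunits, Kcnk5 (TASK-2), a pH-sensitive background channel (chromosome 14, 20190125 to 20231877, minus strand), was 3.23, 1.78 and 1.77 FPKM in proximal control libraries. Proximal differentiation libraries held 8.92, 10.9 and 10.8 FPKM. In mid organoids it was 6.16, 4.97 and 5.33 FPKM in control and 38.9, 34.1 and 40.2 FPKM in differentiation medium. All differentiation libraries stood above all control libraries, and the lowest of them came from the proximal region. In distal organoids it was 6.61, 7.74 and 4.50 FPKM in control and 48.5, 42.9 and 34.5 FPKM in differentiation medium. The means rose 4.51-fold, 6.89-fold and 6.68-fold in proximal, mid and distal organoids, with log2 differences of 1.81 ± 0.19 (SE, adjusted p = 2.75e-06), 2.58 ± 0.19 (adjusted p = 4.31e-08) and 2.57 ± 0.19 (adjusted p = 5.07e-08).

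Kcnk6 (TWIK-2), a two-pore subunit found largely in endosomes and lysosomes (chromosome 7, 28921351 to 28931940, minus strand), was 6.04, 4.74 and 5.53 FPKM in proximal control and 14.6, 15.3 and 16.1 FPKM in proximal differentiation libraries. In mid organoids it was 6.35, 6.92 and 7.18 FPKM in control and 13.2, 13.5 and 13.6 FPKM in differentiation medium. In distal organoids it was 5.36, 4.76 and 5.96 FPKM in control and 7.42, 7.47 and 9.01 FPKM in differentiation medium. The media did not overlap in any region, and the distal differentiation libraries were the lowest of the differentiation libraries. The log2 difference was 1.35 ± 0.10 (SE, adjusted p = 1.36e-07) in proximal, 0.89 ± 0.10 (adjusted p = 3.56e-06) and 0.50 ± 0.10 (adjusted p = 0.000612) in mid and distal organoids. Scaling the libraries to their total recovered reads in place of the authors' library size put the median log2 difference of all genes at -0.26, -0.34 and -0.35 in the 3 regions. The distal difference of Kcnk6 was then 0.10 (adjusted p = 0.48), and all genes split into 2371 higher and 5260 lower, 2434 and 6098, and 2360 and 6197.

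Kcnk1 (TWIK-1), a weakly conducting two-pore subunit that cycles through recycling endosomes (chromosome 8, 126721909 to 126757424, plus strand), had the highest mean of the 9 genes in every group. Proximal control libraries held 61.5, 61.1 and 62.0 FPKM and proximal differentiation libraries 43.2, 55.7 and 53.9 FPKM. In mid organoids it was 61.6, 62.4 and 64.4 FPKM in control and 39.6, 41.4 and 56.8 FPKM in differentiation medium. In distal organoids it was 56.3, 51.0 and 62.5 FPKM in control and 60.1, 35.4 and 40.8 FPKM in differentiation medium. Proximal and mid values did not overlap between media, and the distal values did, through differentiation replicate 1. The log2 difference passed the threshold in mid organoids (-0.46 ± 0.17, SE, adjusted p = 0.0285) and was -0.28 ± 0.17 (adjusted p = 0.185) in proximal and -0.34 ± 0.17 (adjusted p = 0.0956) in distal organoids. The mid call was lost on leaving out any of 5 mid libraries in turn, all but differentiation replicate 3 (adjusted p up to 0.115), and without distal differentiation replicate 1 the distal difference was -0.56 (adjusted p = 0.00564). Scaled to total reads, the proximal and distal differences were -0.59 (adjusted p = 0.00125) and -0.79 (adjusted p = 8.09e-05).

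Kcnf1, a silent subunit that modifies Kv2 channels (chromosome 12, 17222101 to 17226889, minus strand), was 0.309, 0.667 and 0.536 FPKM in proximal control and 1.72, 3.25 and 2.73 FPKM in proximal differentiation libraries. The mid values were 1.23, 1.10 and 0.792 FPKM in control and 10.9, 9.31 and 8.30 FPKM in differentiation medium. The distal values were 0.730, 0.539 and 0.385 FPKM in control and 4.95, 7.47 and 5.24 FPKM in differentiation medium. Every differentiation library stood above every control library, with mid differentiation the highest group. The means rose 5.10-fold, 9.16-fold and 10.7-fold, and the log2 differences were 1.23 ± 0.18 (SE, adjusted p = 5.94e-05), 2.37 ± 0.18 (adjusted p = 6.25e-08) and 2.14 ± 0.18 (adjusted p = 1.99e-07) in proximal, mid and distal organoids. The Kv2 pore subunits that silent subunits join, 2 genes in the table, reached at most 0.0440 FPKM in any library.

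Kcnu1 (SLO3), a pore subunit best known from sperm (chromosome 8, 26339651 to 26427967, plus strand), was 2.98, 3.14 and 3.50 FPKM in proximal control and 2.26, 2.26 and 2.08 FPKM in proximal differentiation libraries. The mid values were 0.178, 0.287 and 0.192 FPKM in control and 0.140, 0.151 and 0.0649 FPKM in differentiation medium. The distal values were 0.264, 0.396 and 0.284 FPKM in control and 0.138, 0.129 and 0.194 FPKM in differentiation medium. All 6 proximal libraries stood above all 12 mid and distal libraries. The medium difference passed the threshold in proximal organoids (log2 -0.39 ± 0.10, SE, adjusted p = 0.00433) and was -0.12 ± 0.10 (adjusted p = 0.303) in mid and -0.19 ± 0.10 (adjusted p = 0.118) in distal organoids. With a pseudocount of 0.1 in place of 1 the proximal difference was -0.52 (adjusted p = 0.105) and the distal one -0.70 (adjusted p = 0.0290).

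**Figure D2:**
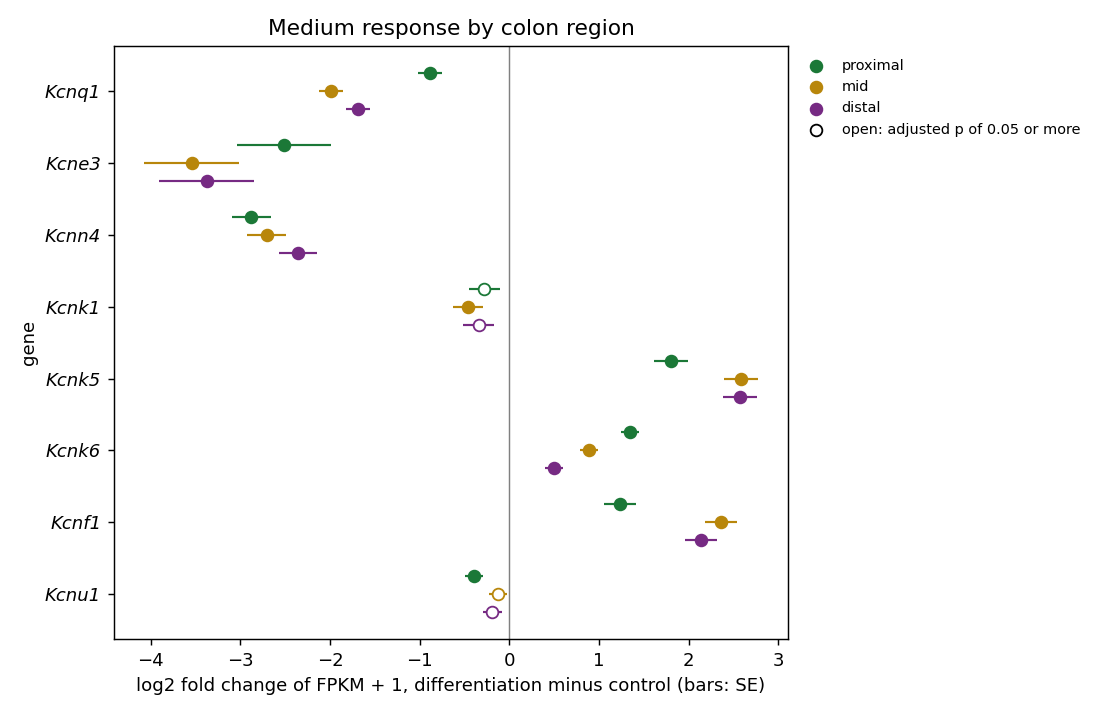
Log2 difference of FPKM + 1 between differentiation and control medium for each gene, in proximal, mid and distal organoids, with bars of 1 SE and open points where the adjusted p was 0.05 or more. Kcnq1, Kcne3 and Kcnn4 lie left of 0 in all 3 regions, Kcnk5, Kcnk6 and Kcnf1 right of 0, with Kcnk6 going from 1.35 in proximal to 0.50 in distal organoids.

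The makeup of the potassium channel transcripts is given as a description, without a test. As a share of the summed FPKM of the 94 genes, Kcnq1, Kcne3 and Kcnn4 together made 53.5% in proximal, 42.2% in mid and 43.6% in distal control organoids, and 26.8%, 6.46% and 8.83% in differentiation medium. Kcnk1, Kcnk5 and Kcnk6 together made 41.1%, 52.7% and 52.3% in control and 66.2%, 81.3% and 82.1% in differentiation medium. The ratio of Kcnk5 to Kcnq1 FPKM was 0.0526 ± 0.0275 (SD, n = 3) in proximal control and 0.427 ± 0.0203 in proximal differentiation organoids. It went from 0.236 ± 0.0295 to 7.45 ± 1.29 in the mid region and from 0.249 ± 0.0817 to 5.88 ± 1.56 in the distal region. Kcnk5 thus exceeded Kcnq1 in all 6 mid and distal differentiation libraries and in no proximal library. In distal differentiation organoids the means ran from Kcnk1 at 45.5 and Kcnk5 at 41.96 FPKM, whose libraries overlapped, to Kcnk6 at 7.97, Kcnq1 at 7.33 and Kcnf1 at 5.89 FPKM, each of which overlapped the next. In proximal control organoids the order was Kcnk1 at 61.5, Kcnq1 at 45.0, Kcnn4 at 23.0 and Kcne3 at 22.1 FPKM, and only the last 2 overlapped.

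**Figure D3:**
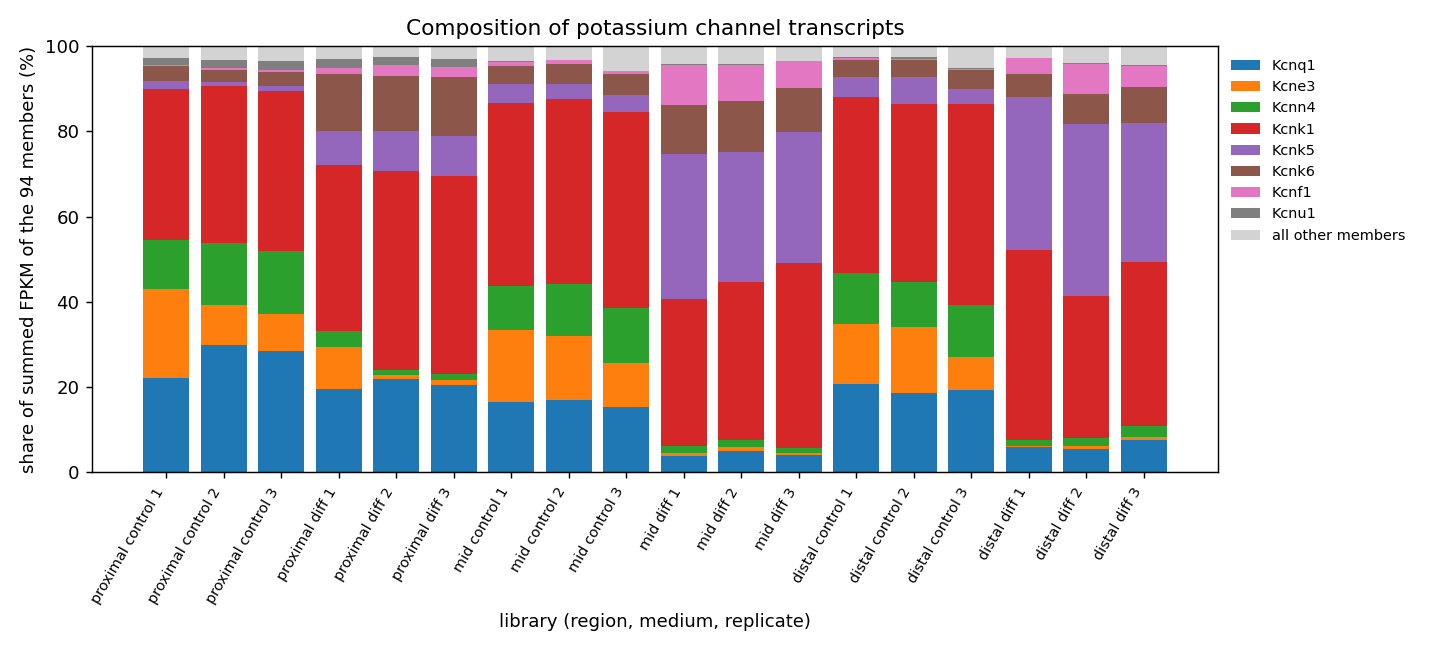
Share of the summed FPKM of the 94 genes taken by each described gene (per cent, stacked) in every library, diff standing for differentiation medium. Kcnk1, in red, is the largest share in 17 of the 18 libraries and Kcnk5 in the other, distal differentiation replicate 2. Kcnk5, in purple, averages 31.7% in mid and 36.3% in distal differentiation medium against 8.84% in proximal differentiation medium.

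Between regions in control medium, Kcnq1 and Kcnu1 were higher and Kcnk5 lower in proximal than in mid or distal organoids. Distal minus proximal, 1 of the 9 genes was called higher and 2 lower, against 5.57% and 4.98% of all tested genes, and mid minus proximal the counts were also 1 and 2, against 7.99% and 5.28%. The log2 difference of distal minus proximal was -0.79 for Kcnq1 (adjusted p = 0.00102), -1.68 for Kcnu1 (adjusted p = 1.54e-08) and 1.16 for Kcnk5 (adjusted p = 0.000589). Mid minus proximal gave -0.91 (adjusted p = 0.000272), -1.79 (adjusted p = 6.82e-09) and 1.02 (adjusted p = 0.00189) for the same genes. Without proximal differentiation replicate 1, which enters these fits only through the shared estimate of the spread, Kcnn4 was also called, at -0.57 (adjusted p = 0.00926) distal minus proximal and -0.42 (adjusted p = 0.0377) mid minus proximal. Cell type markers moved with these comparisons. Mid minus proximal control, 4 of 4 tested enteroendocrine, 3 of 5 goblet and 3 of 4 crypt stem markers were called higher, with mean sums of 23.8 against 1.75, 314 against 75.9 and 34.8 against 28.4 FPKM. Distal minus proximal control, 1 of 4, 1 of 5 and 2 of 4 were called higher, with sums of 10.1, 135 and 31.8 FPKM in distal organoids. Of 4 surface colonocyte markers, 2 were called higher mid minus proximal and 1 distal minus proximal. The part of these markers was not tested. Distal and mid control organoids differed in 0 of the 9 genes by limma, with 2 at an unadjusted p under 0.05, Kcnf1 and Kcnk6, while 0.140% of all genes passed upward and 0.186% downward.

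Between regions in differentiation medium, Kcnq1, Kcnu1 and Kcnk5 were called in the same directions as in control medium, and Kcnf1 and Kcnk6 were called too. Distal minus proximal, 2 were called higher and 3 lower, against 15.6% and 14.3% of all genes. Kcnk5 was 1.93 higher on the log2 scale (adjusted p = 1.63e-06) and Kcnf1 0.95 higher (adjusted p = 0.000853) in distal organoids. Kcnq1 differed by -1.59 (adjusted p = 3.55e-07), Kcnu1 by -1.47 (adjusted p = 3.47e-08) and Kcnk6 by -0.87 (adjusted p = 1.18e-05). Kcne3 was at -1.22 (adjusted p = 0.0973) distal minus proximal, at -1.68 (adjusted p = 0.0346) without proximal differentiation replicate 2 and at -0.37 (adjusted p = 0.471) without proximal differentiation replicate 1. Mid minus proximal, 2 were higher and 2 lower, against 15.6% and 13.7% of all genes: Kcnk5 at 1.79, Kcnf1 at 1.58, Kcnq1 at -2.02 and Kcnu1 at -1.52. Kcnk6 alone was called between distal and mid organoids, at -0.69 (adjusted p = 0.00340), so 0 genes were higher and 1 lower against 0.209% and 0.481% of all genes. That call was lost when only the 2 groups compared were fitted (adjusted p = 0.162). By limma, Kcnf1 at -0.62 and Kcnq1 at 0.43 had unadjusted p of 0.00333 and 0.00566 there (adjusted p = 0.177 and 0.236). The surface colonocyte sum moved with the proximal comparisons in differentiation medium, at a mean of 729 FPKM in proximal, 4717 FPKM in mid and 5536 FPKM in distal organoids. Other markers moved too. Mid minus proximal, 4 of 4 tested enteroendocrine and 2 of 5 goblet markers were called higher. Distal minus proximal, 2 of 4 and 2 of 5 were called higher, and 1 goblet marker lower. The part of these markers in the comparisons was not tested.

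**Figure D4:**
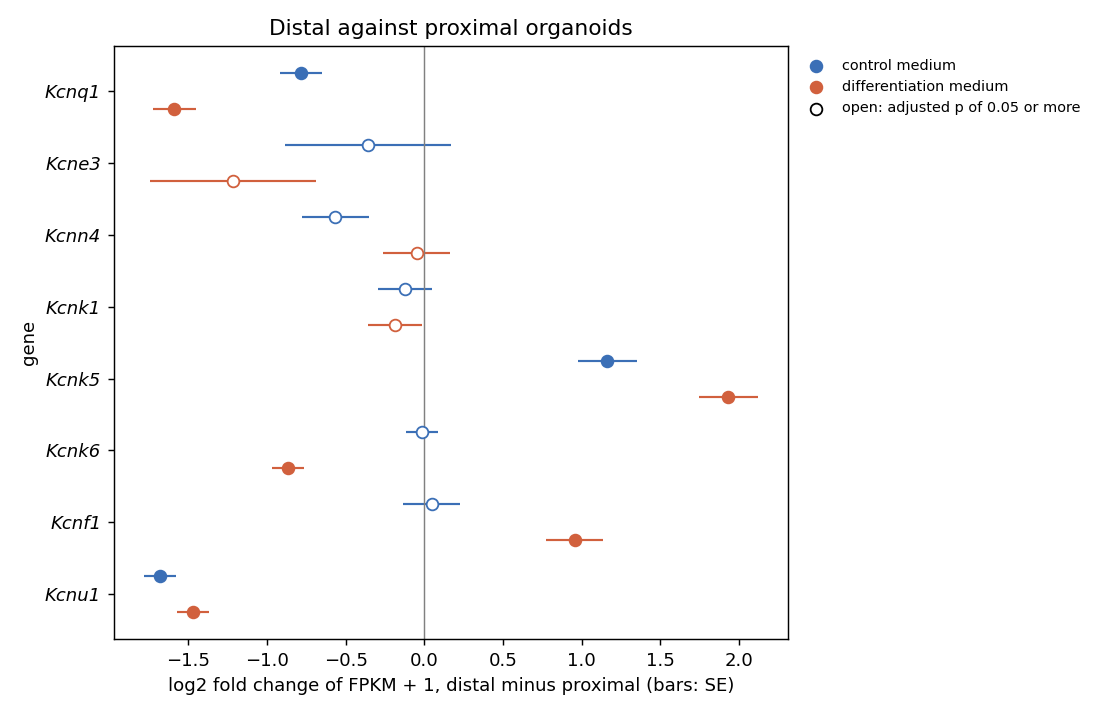
Log2 difference of FPKM + 1 between distal and proximal organoids for each gene in control (blue) and differentiation (orange) medium, with bars of 1 SE and open points where the adjusted p was 0.05 or more. Kcnu1 lies near -1.68 and -1.47 in the 2 media, whereas Kcnk6 and Kcnf1 lie near 0 in control medium and at -0.87 and 0.95 in differentiation medium.

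The medium response itself was compared between distal and proximal organoids by an interaction term. Of the 9 genes, 1 had a more positive and 2 a more negative log2 response in distal organoids, against 4.16% and 4.09% of all genes, and 3 differed over any of the regions by a moderated F test (Kcnf1, Kcnk6 and Kcnq1), against 9.59% of all genes. Kcnk6 rose less in distal organoids, by -0.85 ± 0.14 (SE, adjusted p = 0.00178). Kcnq1 fell more, by -0.80 ± 0.19 (adjusted p = 0.0170), a call lost when only the 4 groups concerned were fitted (adjusted p = 0.0643). Kcnf1 rose more, by 0.91 ± 0.25 (adjusted p = 0.0384), a call lost under 5 other settings and without any 1 of 9 libraries. Kcnk5 had an interaction of 0.77 ± 0.26 (adjusted p = 0.0906), which passed the threshold without distal differentiation replicate 3 (adjusted p = 0.0493). Without proximal differentiation replicate 1, Kcnn4 fell less in distal organoids, by 0.85 (adjusted p = 0.0150), and Kcnf1 missed the threshold (adjusted p = 0.0727).

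The 85 genes below the level were counted by family. Of these, 21 had no read in any library, 35 peaked at up to 0.1 FPKM, 27 peaked between 0.1 and 1 FPKM, and 2 reached 1 FPKM in 2 libraries. None of the 15 inward rectifiers, 8 Shaker-type (Kv1), 8 EAG, ERG and ELK, 4 Shaw-type (Kv3), 3 Shal-type (Kv4) and 2 Kv2 subunits passed, and 6 of the 8 Kv1 genes had no read. The 2 that came nearest were inward rectifiers, each high in other regions than the other. Kcnj2 (Kir2.1), which sets the resting voltage of many cells, was 0.487, 1.10 and 1.22 FPKM in proximal differentiation libraries and at most 0.422 FPKM elsewhere. Kcnj8 (Kir6.1), the pore of an ATP-sensitive channel, was 0.386, 0.738 and 1.07 FPKM in mid and 0.485, 0.759 and 1.14 FPKM in distal differentiation libraries, and at most 0.0313 FPKM in any proximal library. Kcnma1, the pore of the BK channel that secretes potassium at the apical side of the colon, was seen at 0.122 FPKM or less, from 261 reads in 18 libraries, and each of the BK beta genes Kcnmb1, Kcnmb2, Kcnmb3 and Kcnmb4 had 8 reads or fewer. Kcnma1 and the Kcnmb genes were chosen after their values were seen.

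Other genes of potassium handling, from lists of named genes, were tested in the same fit. Of 12 partners of potassium channels outside the Kcn genes, 5 were measured well enough to test and all 5 were called higher in differentiation medium in each region, where 27.6%, 31.5% and 31.6% of all tested genes were in proximal, mid and distal organoids, with medians of 1.05, 0.87 and 1.17 on the log2 scale. In distal organoids Akap9, a scaffold of the Kcnq1 channel, rose by 1.23, the calmodulin gene Calm3 by 1.17, and Lrrc26, the gamma subunit of BK channels, by 0.76. Lrrc26 lay at 23.9 to 82.3 FPKM while its pore partner Kcnma1 stayed at or below 0.122 FPKM.

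Among 13 pumps and cotransporters that carry potassium, 8 were tested, of which 4 rose and 2 fell in the proximal region, 5 rose and 2 fell in the mid region, and 5 rose and 3 fell in the distal region. Among all tested genes, 27.6% rose and 26.2% fell in the proximal, 31.5% and 32.0% in the mid, and 31.6% and 31.3% in the distal region. In distal organoids Atp12a, the colonic proton-potassium pump, rose by 5.39 and the sodium pump subunit Atp1b1 by 1.94, while Slc12a2, the basolateral sodium-potassium-chloride cotransporter, fell by 2.57. Slc12a2 was also lower in proximal and mid organoids, by -2.60 and -2.75. Atp12a rose by 4.999 in mid organoids and was 1.10 (adjusted p = 0.0616) in proximal ones.

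Of 10 anion and sodium channels and exchangers, 8 were tested. In proximal organoids 5 rose and 2 fell, in mid 5 rose and 1 fell, and in distal 6 rose and 1 fell. Shares of all tested genes were the same 27.6% and 26.2%, 31.5% and 32.0%, and 31.6% and 31.3%. In distal organoids the chloride-bicarbonate exchanger Slc26a3 rose by 6.08, the sodium-proton exchangers Slc9a3 and Slc9a2 by 4.20 and 3.47, and the chloride channel Clcn2 by 3.06. Of 13 kinases and regulators of ion transport, 12 were in the table and 9 tested, of which 4 rose and 2 fell in the proximal region, 6 rose and 2 fell in the mid region, and 5 rose and 2 fell in the distal region. Over all tested genes the shares were again 27.6% and 26.2%, 31.5% and 32.0%, and 31.6% and 31.3%. In distal organoids Sgk2 rose by 4.30, the protein kinase A catalytic subunit Prkacb by 1.35 and the ubiquitin ligase Nedd4l by 0.80, while Stk39, a kinase that activates Slc12a2, fell by 1.09.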

How the data were processed

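Poly-A RNA of 18 organoid libraries in 6 groups of 3 was analysed. The authors deposited FPKM per gene and library, with gene lengths and positions on mm39, per the file headers. The tools listed in the submitters' processing notes are HISAT2 2.0.5 and featureCounts 1.5.0-p3, while the annotation release, the strand setting and the scaling of the libraries are not given in the sources used here. FPKM times gene length gave whole multiples of a single step for 100.0% of values (within 0.001 of a read), from which reads were recovered. The summed reads were 0.831 to 1.32 times the library size implied by the FPKM, 0.831 to 0.873 in control and 0.959 to 1.32 in differentiation libraries.

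Genes with at least 1 FPKM in at least 3 libraries (12896, of which 11034 protein-coding) were tested on log2(FPKM + 1) with limma 3.58.1 in R 4.3.3, with 1 mean per group, a trend on the prior variance and 12 residual degrees of freedom. Fold changes on this scale understate those of low genes. Benjamini-Hochberg adjustment ran over all tested genes within each of 11 comparisons, at a threshold of 0.05. Per-library values are printed for every gene that passed the filter, and the other members are counted by family. In the lists of other transport genes, up to 4 genes with the largest called difference in distal organoids are named. By these rules 1 Kcn gene that passed the filter and some of the other transport genes would be named too, and they are not reported here. The Kcn genes, gene lists and tests were chosen with earlier results of these data known. Alternatives were a pseudocount of 0.1, no filter, a filter of 5 FPKM, 2 other scalings, a replicate block, fits of only the groups compared, and leaving out each library. On simulated data for the proximal medium comparison over 12896 genes, 43 of 50 genes raised 2-fold, 50 of 50 raised 4-fold, 37 of 50 lowered to 0.5 and 49 of 50 lowered to 0.25 of their level were recovered. Among the unchanged genes, 13 were called. The changed genes were drawn from those with more than 50 expected reads, and all genes had the same simulated spread. Recovery of lower or more variable genes was thus not measured. Promoter windows came from a RefSeq table of GRCm38.p6, and no coordinate was moved between builds. The table also had 6 columns of the authors' group means, equal to the means of the libraries, which were not tested.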

Additional observations from a re-analysis of the deposited data

Results flagged for a closer look

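Kcnf1, Kcnk6 and Kcnq1 had a medium response that differed between distal and proximal organoids by the interaction term of the limma fit of all 18 libraries in 6 groups. When only the 4 groups concerned were fitted, Kcnk6 was the 1 gene of the 9 still called, with Kcnq1 at an adjusted p of 0.0643 and Kcnf1 at 0.102. Kcnf1 rose by 2.14 in distal and 1.23 in proximal organoids on the log2 scale, a difference of 0.91 (adjusted p = 0.0384). Kcnk6 rose by 0.50 in distal and 1.35 in proximal organoids, a difference of -0.85 (adjusted p = 0.00178). For Kcnq1 the differences were -1.69 in distal and -0.88 in proximal organoids, -0.80 apart (adjusted p = 0.0170). Of 25 alternatives each, 14 lost the call for Kcnf1, 1 for Kcnq1 and 0 for Kcnk6. Of all tested genes, 4.16% were called with a more positive and 4.09% with a more negative distal response. Without proximal differentiation replicate 1, whose crypt stem sum was 3.95 FPKM against 0.593 and 0.768 FPKM, the Kcnk6 difference was -0.88 (adjusted p = 0.0025), that of Kcnq1 -0.87 (adjusted p = 0.0158) and that of Kcnf1 0.73 (adjusted p = 0.0727). The part of the surface colonocyte sum, at a mean of 5536 FPKM in distal and 729 FPKM in proximal differentiation organoids, in these differences was not tested.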

How the results depend on the processing

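Over the 9 genes and all comparisons, 2186 of 2230 alternative values kept their side of the threshold, 28 lost the call and 16 gained it. The sign differed from the main value in 18 of them, all not called in either fit and 0 of them in the medium comparisons, where 651 of 669 kept their side, 12 lost the call and 6 gained it. Counts of genes called among the Kcn genes moved without the filter on low values, where all Kcn genes but the 21 with no read enter. They were 14 in proximal, 15 in mid and 13 in distal organoids for the medium. For distal and mid minus proximal they were 5 and 6 in control and 8 and 9 in differentiation medium. Distal minus mid control gave 1, and the medium response over any region 5. The shares of all genes given above are over the 12896 filtered genes and do not apply to these counts. Shares of all genes without the filter are not given here, so these counts are a description only and cannot be set against a background. With only the groups compared in the fit, 0 were called for distal minus mid in differentiation medium and 1 for the distal minus proximal medium response, and the F test over regions has no such fit. That setting uses fewer libraries for the spread. Over all genes, it gave 795 calls against 1360 for distal minus proximal control, 2020 against 3856 in differentiation medium and 523 against 1063 for the medium response. For distal minus mid control the main 42 calls became 20 with a pseudocount of 0.1, 74 with no filter, 6 with a filter of 5 FPKM and 5 with only the groups compared, and in differentiation medium 89 became 59, 164, 56 and 7. Leaving out each library in turn gave 791 to 1545 calls for distal minus proximal control, 892 to 2134 for mid minus proximal control, 12 to 61 for distal minus mid control, 37 to 117 for distal minus mid differentiation, 602 to 1299 for the distal minus proximal medium response and 680 to 1457 for the response over any region. With a pseudocount of 0.1, Kcne3 was called at -1.86 (adjusted p = 0.0483) for distal minus proximal in differentiation medium, a difference of -0.37 (adjusted p = 0.471) at the main pseudocount without proximal differentiation replicate 1. Scaled to total reads, Kcnu1 was called for the medium in distal organoids at -0.27 (adjusted p = 0.0351). The cause was not tested for any of these.

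Replicate numbers are shared by all groups, but 45 same-numbered pairs of libraries had deviations correlated between -0.387 and 0.542 (median 0.107), 23 of them over 0.1, and 10 of 18 libraries correlated best with their own number, so the numbers were not taken as pairs. With a replicate block, 8, 8 and 6 of the 9 genes were called for the medium in proximal, mid and distal organoids, as without it, and no call of any of the 9 genes changed. Depth limits the genes near 0: a library with 0 reads of a gene allows up to 3 reads, counting error only.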

Other observations

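The values here lie outside the comparisons of the 9 genes. With no filter on low values, some of the 85 low genes were called for the medium, of which 3 are given, chosen after their values were seen. Kcnk3 (TASK-1), an acid-sensitive two-pore subunit, was 0.716 FPKM in mid differentiation organoids against 0.0340 FPKM in mid control organoids, a log2 difference of 0.73 (limma, adjusted p = 1.14e-05). In distal organoids Kcnk3 was 0.321 FPKM against 0.0207 FPKM, and the proximal differentiation mean was 0.111 FPKM. Kcnj8 was 0.732 FPKM in mid and 0.793 FPKM in distal differentiation organoids, against 0.0727 and 0.0567 FPKM in control medium, with log2 differences of 0.67 and 0.75 (limma, adjusted p = 0.00102 and 0.000477). Kcnj2 was also called in 2 regions, at 0.82 in proximal and 0.35 in mid organoids (limma, adjusted p = 0.000107 and 0.0245).

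The 5 genes whose group means were most like those of Kcnk1, by Pearson correlation over the 6 groups on the log2(FPKM + 1) scale, were Ktn1, Gtf3a, Tedc2, Foxp4 and Top2b, with r from 0.996 to 0.999. The 6 means share the libraries and their scaling, and the 5 were the highest of 12896 genes, so the correlations are a description. By position, 9 of the 94 Kcn genes lie on chromosome 7, and 4 of those 9 (Kcnq1, Kcne3, Kcnn4 and Kcnk6) are among the 9 described genes.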
